A study of Mus musculus with 2 samples.

Results

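Plasmacytoid dendritic cells were gated from single-cell RNA profiles of the tumour region of mouse liver by their transcript counts. A cell barcode with at least 300 detected genes and at most 25% of its unique molecular identifiers (UMIs, 1 per captured transcript) from mitochondrial genes was kept, and it entered the gate with at least 3 UMIs of Siglech, none of the T cell genes Cd3d, Cd3e and Cd3g, none of the B cell gene Ms4a1, none of Xcr1 and Clec9a, which mark conventional type 1 dendritic cells (cDC1), and at most 1 of the macrophage genes C1qa, C1qb and C1qc. The gate held 130 of 16305 kept barcodes and of 20142 deposited ones. Of these cells 35 came from the inhibitor library and 95 from the control library. Siglech and the absence of the other genes chose the cells, so levels of these genes and differences from other cells are given as a description.

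Both libraries came from C57BL/6 mice recorded as 17 months old that had received the diet named CD-HFD for 15 months and had hepatocellular carcinoma. In the inhibitor library the mice were given an inhibitor of FABP5, a cytosolic fatty acid carrier, from month 13, and the other library is labelled control. How many mice each library pools, and what the control mice received, was not stated in the sources used here. An Annexin V kit was used to enrich live cells, and the labels do not say which fraction was sequenced. With 1 library per group no difference between the libraries has a replicate check, none was tested, and every interval below covers counting error only.

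Plasmacytoid dendritic cells are a small leukocyte population that senses viral and self nucleic acids through endosomal Toll-like receptors and can secrete large amounts of type I interferon. Their identity depends on Tcf4, which codes for the E protein E2-2 and binds DNA at E-box motifs, and they carry the receptors Siglech, Bst2 and Ccr9 in the mouse. In tumours they have been described both as sources of interferon and as tolerogenic cells.

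The 250 bases before the RefSeq transcription start of the 3 surface marker genes (GRCm38.p6) are shown because Siglech, Ccr9 and Bst2 define the population and because Tcf4 and interferon-induced factors bind motifs of the kinds marked. Capitals mark the E-box motif CANNTG, which reads alike on both strands, and, in Bst2, a run made of overlapping matches to GAAA, any 2 bases and GAAA again, a core of the interferon-stimulated response element, searched on both strands.
Siglech, chr7:55767934-55768183, + strand: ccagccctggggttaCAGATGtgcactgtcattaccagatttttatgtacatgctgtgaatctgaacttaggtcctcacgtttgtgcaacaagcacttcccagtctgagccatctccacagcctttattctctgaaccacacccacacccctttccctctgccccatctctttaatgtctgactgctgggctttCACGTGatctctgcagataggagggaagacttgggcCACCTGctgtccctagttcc
Ccr9, chr9:123766961-123767210, + strand: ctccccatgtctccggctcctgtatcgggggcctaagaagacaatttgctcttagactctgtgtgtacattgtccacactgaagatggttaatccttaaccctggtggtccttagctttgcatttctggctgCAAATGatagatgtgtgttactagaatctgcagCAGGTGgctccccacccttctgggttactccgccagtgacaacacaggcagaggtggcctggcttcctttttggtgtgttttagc
Bst2, chr8:71537473-71537722, - strand: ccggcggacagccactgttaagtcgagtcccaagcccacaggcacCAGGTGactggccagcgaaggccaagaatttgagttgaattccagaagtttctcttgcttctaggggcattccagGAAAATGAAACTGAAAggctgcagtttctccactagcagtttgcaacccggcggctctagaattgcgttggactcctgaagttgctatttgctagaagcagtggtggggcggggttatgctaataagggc
The Siglech window held 3 E-box motifs, beginning 235, 56 and 20 bases before the start, and the Ccr9 window held 2, at 118 and 85 bases. The Bst2 window held 1, at 205 bases, and the 2 interferon-type matches lay at 130 and 124 bases. An E-box motif was present in 66.2% of 32851 promoter windows of the same length and the interferon-type motif in 2.98%, so an E-box alone sets no promoter apart. Of the 20 genes that led the gated cells over all others, 16 had a promoter entry, with 26 windows among them. In some window 12 of them had an E-box and 2, Cd300c and Rnase6, the interferon-type motif. A gene could count by any of its windows, so these counts are not on the scale of the shares of single windows. These matches are letters in a window and do not show binding.

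The gated cells carried the 4 marker genes at high levels in both libraries. Levels are given as CPM, the UMIs of a gene per 1000000 UMIs of the gated cells of a library, which summed to 264311 UMIs in the inhibitor library and 723301 in the control library, with medians of 7470 UMIs per inhibitor cell and 7517 per control cell. Siglech (chromosome 7, 55768178 to 55778925) codes for a lectin receptor that signals through the adaptor Tyrobp and stood at 1880.4 CPM in inhibitor cells and 2063 CPM in control cells. Bst2 (chromosome 8, 71534255 to 71537456), an interferon-induced protein that tethers virions, was at 3269 CPM in inhibitor cells and 4155 CPM in control cells. Ccr9 (chromosome 9, 123678439 to 123784330), a chemokine receptor for homing to the gut and thymus, was at 829 CPM in inhibitor cells and 975 CPM in control cells. Tcf4 (chromosome 18, 69343356 to 69689079) was at 1646 CPM in inhibitor cells and 1467 CPM in control cells. Coordinates are those of GRCm38. In single cells the lowest, median and highest Tcf4 levels were 4.83, 16.7 and 36.9 UMIs per 10000 in inhibitor cells and 0, 14.2 and 79.5 in control cells, and at least 1 Tcf4 UMI was seen in 35 of 35 inhibitor and 94 of 95 control cells. Bst2, Ccr9 and Tcf4, which the gate did not use, were thus present in nearly all gated cells, as the label of the set asks.

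Genes that the gate did not use also separated these cells from the rest of their library. Cox6a2, a subunit isoform of cytochrome c oxidase, was higher than in all other kept barcodes by 166-fold in the inhibitor library and 47.3-fold in the control library. Klk1, a tissue kallikrein protease, was higher by 103-fold in the inhibitor library and 52.2-fold in the control library, and Atp2a1, a sarcoplasmic and endoplasmic reticulum calcium pump, by 141-fold in the inhibitor library and 69.3-fold in the control library. The transcription factor genes Spib, Runx2, Tcf4, Bcl11a and Irf8 were also among the 20 leading genes, Spib by 46.9-fold in the inhibitor library and 16.9-fold in the control library and Irf8 by 12.8-fold in the inhibitor library and 11.1-fold in the control library. Ctsl, a lysosomal protease, and Rnase6, a ribonuclease, were on the list as well. The other barcodes included those with Siglech and Clec9a UMIs described below, which held 402 of 547 inhibitor and 1003 of 1405 control UMIs of Cox6a2 outside the gate. Without them, a comparison chosen after seeing the data, the folds were 624-fold in the inhibitor and 163-fold in the control library for Cox6a2, 448-fold in the inhibitor and 184-fold in the control library for Klk1, 620.2-fold in the inhibitor and 212-fold in the control library for Atp2a1, 62.9-fold in the inhibitor and 21.4-fold in the control library for Spib and 13.8-fold in the inhibitor and 12.7-fold in the control library for Irf8. Since the same cells were gated by Siglech, these ratios describe the set and test nothing.

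Against the nearest other leukocytes the differences were of several kinds. Conventional type 2 dendritic cells (cDC2) were gated by Clec10a or Cd209a with H2-Ab1 (157 inhibitor and 159 control cells), cDC1 by at least 2 UMIs of Xcr1 and Clec9a together (57 inhibitor and 66 control cells), B cells by Cd79a and Ms4a1 (342 inhibitor and 543 control cells) and T cells by Cd3 genes (2933 inhibitor and 2574 control cells), all but the T cells without Siglech. Irf8, which also directs cDC1, was at 2444 CPM in inhibitor cells and 2916 CPM in control cells of the plasmacytoid gate and at 1625 CPM in inhibitor and 1590.1 CPM in control cDC1, but only at 91.4 CPM in inhibitor and 92.1 CPM in control cDC2. Ly6d, a GPI-anchored protein shared with B lymphoid progenitors, was at 1911 CPM in inhibitor cells and 3143 CPM in control cells and at 1521 CPM in inhibitor and 1745 CPM in control B cells, against 1.12 CPM in inhibitor and 3.84 CPM in control cDC1. Cox6a2 was at 1419 CPM in inhibitor cells and 1687 CPM in control cells, whereas B cells had 0 CPM in the inhibitor and 0.843 CPM in the control library and cDC2 had 2.49 CPM in the inhibitor and 0 CPM in the control library. The antigen presentation gene H2-Aa was the reverse case, at 2769 CPM in inhibitor cells and 2239.7 CPM in control cells against 7535 CPM in inhibitor and 9970.4 CPM in control cDC2.

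**Figure D1:**
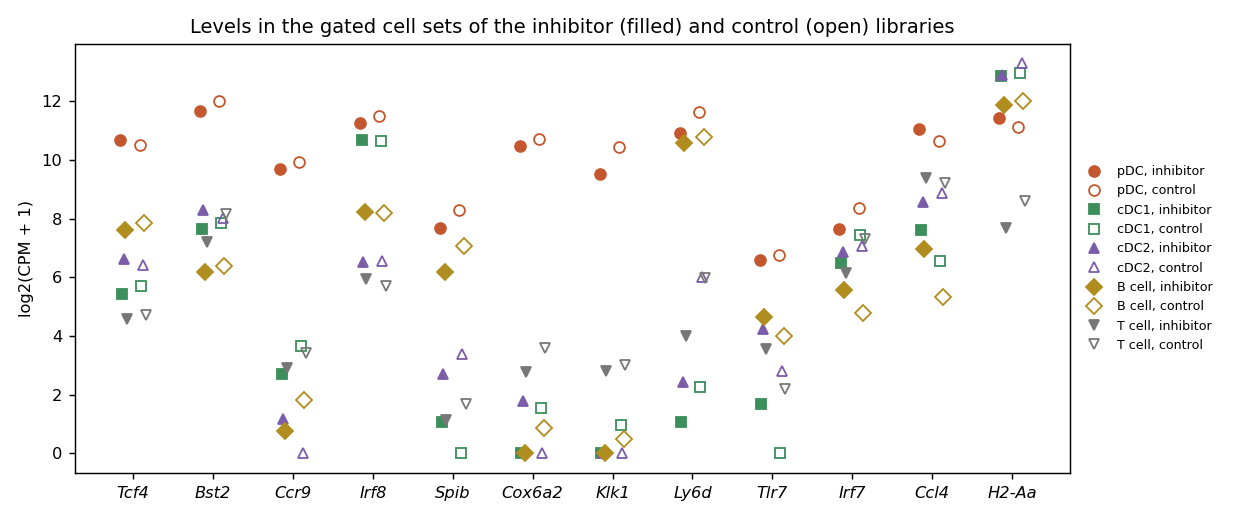
Levels of 12 genes, log2(CPM + 1), in the gated plasmacytoid dendritic cells (pDC), cDC1, cDC2, B cells and T cells of the inhibitor library (filled symbols, left) and the control library (open symbols, right). Tcf4, at 1646 CPM in inhibitor and 1467 CPM in control plasmacytoid cells, did not exceed 228 CPM in another set, while H2-Aa was higher in cDC1, cDC2 and B cells.

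The condition on Clec9a removed barcodes that otherwise passed the gate. Clec9a codes for a receptor for dead-cell actin that is best known from cDC1 and is also found at low levels on mouse plasmacytoid dendritic cells. Of the kept barcodes with at least 3 Siglech UMIs, 91 in the inhibitor and 195 in the control library, 48 inhibitor and 66 control barcodes failed the gate on Clec9a alone and had no Xcr1 UMI. In 28 of the inhibitor and 35 of the control barcodes a single Clec9a UMI decided. The same Siglech minimum chose these barcodes. Their Bst2, Ccr9 and Tcf4 levels, which neither condition used, were 3572, 988 and 1478 CPM in the inhibitor library, and 4207, 922 and 1433 CPM in the control library, against 3269, 829 and 1646 CPM in gated inhibitor cells and 4155, 975 and 1467 CPM in gated control cells. The cDC1 genes Naaa and Wdfy4 were at 25.2 and 36.4 CPM in the inhibitor and 3.72 and 24.2 CPM in the control barcodes, against 859 and 337 CPM in inhibitor cDC1 and 895 and 397 CPM in control cDC1. T cells had Clec9a at 1.14 CPM in the inhibitor and 1.29 CPM in the control library. Another 5 barcodes, all in the control library, had Xcr1 as the reason for failing.

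These Clec9a-positive barcodes were left out of the gate as its rule asks, and they serve below as a second set of cells from the same libraries, chosen by the same Siglech minimum. With Clec9a allowed the population held 83 inhibitor and 161 control cells, of which 57.8% (95% interval 46.5 to 68.6) of inhibitor and 41.0% (33.3 to 49.0) of control cells had a Clec9a UMI. The lower edge of the gate was thin. At 3 Siglech UMIs, just inside, there were 2 inhibitor cells and 1 control cell, none with a Ccr9 or Cox6a2 UMI. At 2 Siglech UMIs, just outside, there were 1 inhibitor and 7 control barcodes, of which 0 inhibitor and 4 control barcodes had a Ccr9 UMI.

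**Figure D2:**
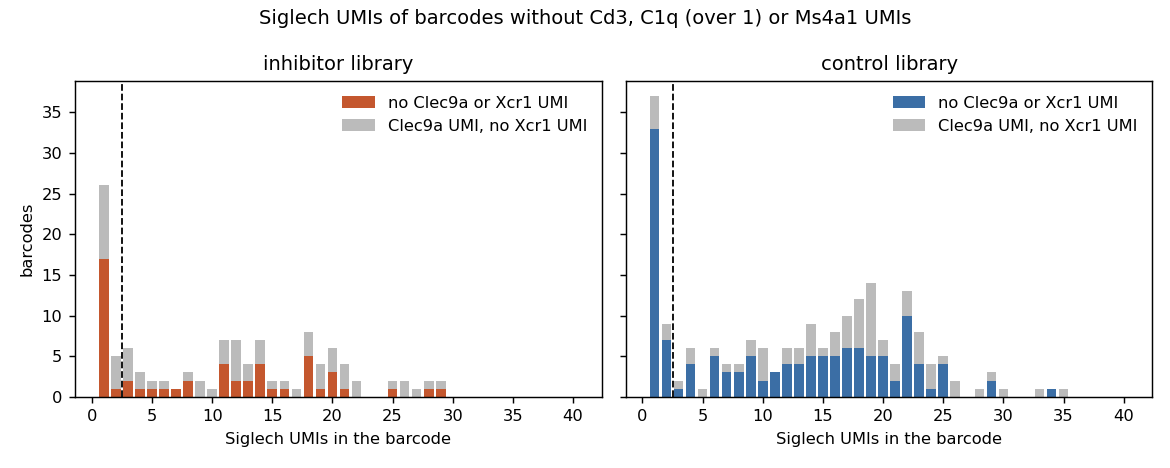
Number of kept barcodes by Siglech UMIs (1 or more) in the inhibitor library (left) and the control library (right), among barcodes without Cd3, Ms4a1 or Xcr1 UMIs and with at most 1 C1q UMI. Coloured bars have no Clec9a UMI, grey bars have at least 1, and the dashed line is the gate's lower limit of 3 UMIs; few barcodes lie next to the line, and grey bars reach up to 29 and 35 Siglech UMIs, beside 29 and 34 for coloured ones, in the inhibitor and the control library.

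Plasmacytoid dendritic cells made up a smaller part of the inhibitor library. The gate held 0.370% (95% Clopper-Pearson interval 0.258 to 0.514) of kept inhibitor barcodes and 1.39% (1.13 to 1.70) of kept control barcodes, a ratio of 0.266 (0.175 to 0.396) and a log2 ratio of -1.91 (-2.51 to -1.34). With Clec9a allowed the shares were 0.876% (0.699 to 1.09) of inhibitor and 2.36% (2.01 to 2.74) of control barcodes, a log2 ratio of -1.43 (-1.83 to -1.04). The other sets were also smaller parts of the inhibitor library, with log2 ratios of -1.14 (-1.34 to -0.94) for B cells, -0.68 (-1.22 to -0.15) for cDC1, -0.49 (-0.82 to -0.16) for cDC2 and -0.28 (-0.36 to -0.21) for T cells. Set against conventional dendritic cells alone, the gate held 35 cells to 214 in the inhibitor library and 95 to 225 in the control library, a log2 ratio of -1.37 (-1.97 to -0.80).

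These shares depend on what else each suspension held. Over the mitochondrial limit were 885 inhibitor and 2204 control barcodes, and dissociation, enrichment and animal cannot be told apart from treatment. As a gauge of free RNA and cell doublets, 3 or more Siglech UMIs were found in 0.205% (0.0751 to 0.445) of inhibitor and 0.427% (0.214 to 0.763) of control T cells. Of the gated cells, 3 in each library were marked by a doublet score. The libraries shared 29 barcode sequences, none of them in the gate.

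Gene levels in the gated cells were alike in the libraries for most genes. Of 2615 genes with at least 50 UMIs over both libraries' gated cells, 190 (7.27%) were at least 1.5-fold higher in inhibitor cells and 195 (7.46%) at least 1.5-fold lower. At a minimum of 20 UMIs, the level used for gene lists below, 668 of 5194 genes (12.9%) were higher and 696 (13.4%) lower, with a median log2 ratio of 0.01. The counts of list members given below stand beside those percentages. The log2 ratio of inhibitor over control, which the values in parentheses below also give, was -0.13 for Siglech, 0.17 for Tcf4, -0.23 for Ccr9 and -0.35 for Bst2. The 95% interval of Siglech (-0.28 to 0.01) included 0, that of Tcf4 (0.00 to 0.33) lay just above it, and those of Ccr9 (-0.46 to -0.01) and Bst2 (-0.46 to -0.24) lay below it. These ratios include 3 large inhibitor cells with more than 20 Lyz2 UMIs, where Siglech, Bst2 and Tcf4 were at 1223, 1376 and 707 CPM. In the other 32 inhibitor cells they were at 2043, 3736 and 1877 CPM. Control cells, none of them above 20 Lyz2 UMIs, had 2063, 4155 and 1467 CPM.

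**Figure D3:**
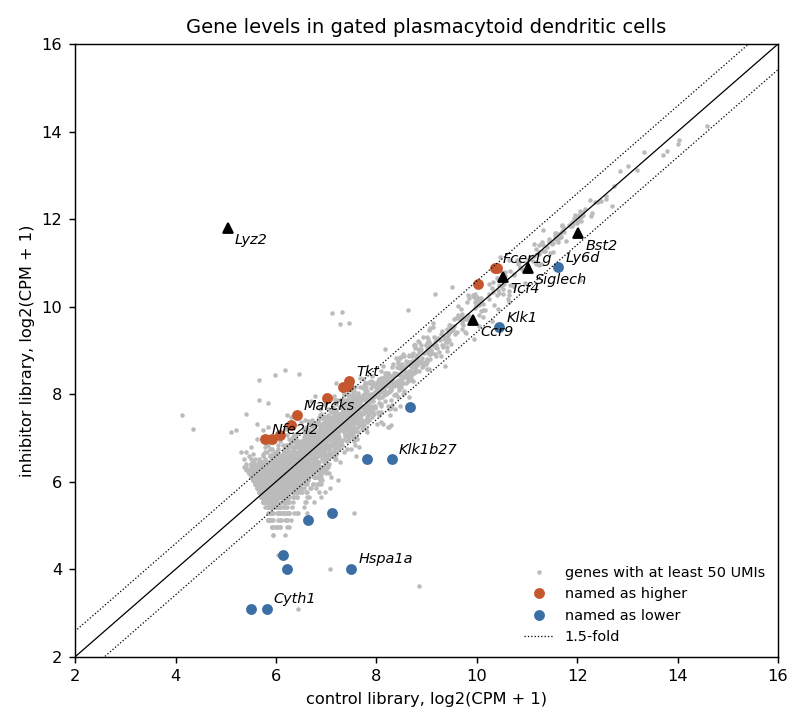
Level of each gene with at least 50 UMIs in the gated cells, log2(CPM + 1), in the inhibitor library (vertical axis) against the control library (horizontal axis). Points are genes, red and blue points are the named higher and lower genes, triangles are 4 marker genes and Lyz2, and dotted lines stand for 1.5-fold; most genes lie between the dotted lines, and Lyz2, at 3545 CPM in inhibitor and 31.8 CPM in control cells, stands apart from the diagonal.

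The 12 genes named as higher and the 12 named as lower were chosen by the bound of the ratio's interval nearest to no difference, leaving out genes that rest on 1 cell. On the lower side stood 2 kallikreins, Klk1 at 738 CPM in inhibitor cells and 1392 CPM in control cells (log2 ratio -0.92, interval -1.14 to -0.69) and Klk1b27 at 90.8 CPM in inhibitor cells and 315 CPM in control cells (-1.80, interval -2.47 to -1.19). Their genes are close copies, so reads could be split between them. In single cells Klk1 had a lowest, median and highest level of 0, 1.28 and 45.6 UMIs per 10000 in inhibitor cells and 0, 7.83 and 67.3 in control cells, and after thinning each cell to 1500 UMIs it was detected in 35.3% (19.7 to 53.5) of inhibitor cells and 59.6% (49 to 69.6) of control cells (60% of inhibitor and 72.6% of control cells before thinning, and 0.209% of inhibitor and 0.282% of control T cells after thinning). Thinning kept 34 inhibitor and 94 control cells. Cells of both libraries covered overlapping ranges, with a larger share of inhibitor cells at 0. In the Clec9a-positive barcodes the log2 ratio was -0.51 for Klk1 and -0.27 for Klk1b27.

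Ly6d was at 1911 CPM in inhibitor cells and 3143 CPM in control cells (-0.72, interval -0.86 to -0.58), with a lowest, median and highest cell at 0, 15.3 and 85.6 UMIs per 10000 in inhibitor cells and 0, 27.8 and 96 in control cells. Among the Clec9a-positive barcodes its log2 ratio was -0.43, and in the 32 inhibitor cells with at most 20 Lyz2 UMIs its level was 2241 CPM. The heat shock chaperone genes Hspa1a and Hspa1b, near-identical copies of each other, had 4 and 10 UMIs in inhibitor cells and 130 and 99 in control cells, with log2 ratios of -3.57 and -1.86. In the Clec9a-positive barcodes the log2 ratio was -0.07 for Hspa1a and -1.97 for Hspa1b. A single barcode there held 23 of the 38 inhibitor UMIs of Hspa1a. Haao, an enzyme of the kynurenine pathway, had 2 UMIs in inhibitor and 32 in control cells and a log2 ratio of -2.55, against -0.04 in the Clec9a-positive barcodes. Cyth1, an exchange factor for ARF GTPases, had 2 UMIs in inhibitor and 40 in control cells (-2.87 in the gate and -0.99 in the Clec9a-positive barcodes). The receptor phosphatase gene Ptprf, the splicing gene Nsrp1, the adaptor gene Grap and the transcript AY036118 were also among the 12, and Grap was higher, not lower, in the Clec9a-positive barcodes (0.71 against -1.53). AY036118 had log2 ratios of -0.97 in the gate, -0.88 in T cells, -0.97 in B cells and -0.99 in cDC2.

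On the higher side Marcks, a substrate of protein kinase C that binds actin, was at 182 CPM in inhibitor cells and 84.3 CPM in control cells (1.11, interval 0.53 to 1.68). Nfe2l2, the transcription factor of the oxidative stress response, was at 125 CPM in inhibitor cells and 53.9 CPM in control cells (1.21, interval 0.50 to 1.92), and Tkt, transketolase of the pentose phosphate pathway, at 314 CPM in inhibitor cells and 174 CPM in control cells (0.85, interval 0.43 to 1.26). These 3 kept their direction in the Clec9a-positive barcodes, with log2 ratios of 0.63, 0.78 and 0.63. They were also higher outside the plasmacytoid cells, at 0.97, 0.74 and 0.33 in T cells and 0.73, 1.47 and 0.37 in B cells. The actin-binding gene Pfn1 (0.50), the histone variant gene H3f3a (0.48) and Fcer1g (0.50), an ITAM adaptor of Fc and other receptors, were abundant genes with small differences. T cells of the same libraries gave log2 ratios of 0.32, 0.43 and 1.55 for these, which were thus also higher outside the plasmacytoid cells. Fam49b, Mtpn, Nab1, Zfand5, Tgfb1 and Smim11 made up the rest. Tgfb1 (-0.01 against 0.75) and Smim11 (-0.73 against 1.00) were not higher in the Clec9a-positive barcodes.

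**Figure D4:**
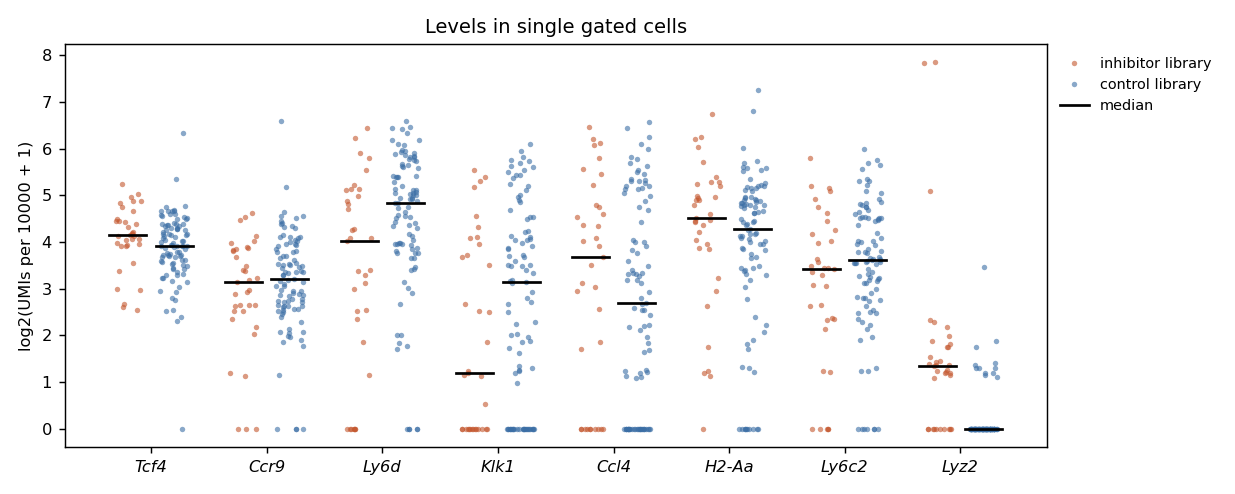
Levels of 8 genes in every gated cell, log2(UMIs per 10000 + 1), with the 35 inhibitor cells (red, left) beside the 95 control cells (blue, right) and the median as a bar. Cells of both libraries overlap for Tcf4 and Ccr9, a larger share of inhibitor cells lies at 0 for Klk1 and Ly6d, and 3 inhibitor cells stand far above the others for Lyz2.

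Transcription factors of the lineage differed little. Of 23 listed factors 18 had at least 20 UMIs, and 1 was at least 1.5-fold higher and 2 lower, beside 12.9% and 13.4% of all genes at that minimum, with a median log2 ratio of 0.15. Irf8 was at 2444 CPM in inhibitor cells and 2916 CPM in control cells (-0.25, interval -0.38 to -0.13). In the 32 inhibitor cells with at most 20 Lyz2 UMIs it was at 2712 CPM. Bcl11a, required for the lineage's development, was at 556 CPM in inhibitor cells and 582 CPM in control cells, Runx2, which acts in maturation and exit from the bone marrow, at 359 CPM in inhibitor cells and 404 CPM in control cells, and Mef2c at 760.5 CPM in inhibitor cells and 708 CPM in control cells. Zeb2, a repressor that limits cDC1 fate, was at 469 CPM in inhibitor cells and 420.3 CPM in control cells. The higher member was Id2, an inhibitor of E proteins, and the 2 lower ones were Spib, an Ets factor with a part in survival of these cells, at 204 CPM in inhibitor cells and 312 CPM in control cells (-0.61, interval -1.07 to -0.18, and -0.58 in the Clec9a-positive barcodes), and Ets1 with 14 UMIs in inhibitor and 61 in control cells (-0.67).

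Among surface and signature genes the larger differences lay on the lower side. Each of the 43 listed genes reached 20 UMIs, none was at least 1.5-fold higher, 11 were at least 1.5-fold lower, and the median log2 ratio was -0.31. In the Clec9a-positive barcodes it was -0.16, and it was -0.11 once cells with transcripts of other cell types had been removed from the gate. Cd300c, an activating receptor, was at 212 CPM in inhibitor cells and 355 CPM in control cells (-0.75, interval -1.19 to -0.32, and -0.14 in the Clec9a-positive barcodes). The lectin gene Cd209d was at 163 CPM in inhibitor cells and 274 CPM in control cells (-0.75 in the gate and -0.36 in the Clec9a-positive barcodes) and Ly6c2, also a marker of inflammatory monocytes, at 1154 CPM in inhibitor cells and 1579 CPM in control cells (-0.45 in the gate and -0.02 in the Clec9a-positive barcodes). Ly6a, an interferon-inducible GPI-anchored protein, was at 609 CPM in inhibitor cells and 983 CPM in control cells (-0.69) but went the other way in the Clec9a-positive barcodes (0.31). Genes that differed less included Plac8 at 3659 CPM in inhibitor cells and 3318 CPM in control cells, the actin regulator Pacsin1 at 276 CPM in inhibitor cells and 274 CPM in control cells, the inhibitory receptor Lair1 at 537 CPM in inhibitor cells and 637 CPM in control cells and the pyrimidine catabolism gene Upb1 at 484 CPM in inhibitor cells and 575 CPM in control cells. The coreceptor gene Cd4 was at 64.3 CPM in inhibitor cells and 98.2 CPM in control cells and the inhibitory receptor Lag3 at 148 CPM in inhibitor cells and 185 CPM in control cells.

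The nucleic acid sensing machinery was present in both libraries. Of 38 listed genes 25 were measured, 3 were at least 1.5-fold higher and 4 lower, and the median log2 ratio was -0.14. Tlr7, the endosomal receptor for single-stranded RNA, was at 94.6 CPM in inhibitor cells and 106 CPM in control cells (-0.17, interval -0.88 to 0.50), above the 10.7 CPM of inhibitor and 3.52 CPM of control T cells. Tlr9, the receptor for CpG DNA, gave only 2 UMIs in inhibitor and 2 in control cells, which is too few for a ratio. Unc93b1, which carries these receptors to endosomes, was at 617 CPM in inhibitor cells and 649.8 CPM in control cells, the endosomal nuclease gene Pld4 at 760.5 CPM in inhibitor cells and 841 CPM in control cells, the adaptor gene Tyrobp at 5441 CPM in inhibitor cells and 5649 CPM in control cells and Slc15a4, a transporter needed for endosomal signalling, at 94.6 CPM in inhibitor cells and 92.6 CPM in control cells. Irf7, the factor that switches on interferon alpha genes, was the most abundant of the lower members at 201 CPM in inhibitor cells and 330.4 CPM in control cells (-0.72, interval -1.18 to -0.29). It was also lower in the Clec9a-positive barcodes (-0.71) and in T cells (-1.17). The endosomal protease gene Lgmn was higher at 159 CPM in inhibitor cells and 48.4 CPM in control cells (1.72), but a single inhibitor cell held 18 of its 42 UMIs. Myd88, the adaptor of Toll-like receptors, had 19 UMIs in inhibitor and 29 in control cells (0.84) and Irf5 33 in inhibitor and 60 in control cells (0.59); neither was higher in the Clec9a-positive barcodes (-0.25 and -0.12).

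Interferon transcripts themselves were nearly absent. No UMI of 20 interferon genes was found in the 35 inhibitor cells or in the 48 Clec9a-positive inhibitor barcodes. For the 35 cells an approximate limit, not an exact Clopper-Pearson interval, allows a share of up to 8.57% of cells with a UMI. In the control library 2 of 95 gated cells carried them, 1 cell with 5 UMIs of Ifnb1 and another with 5 of Ifna2, and these were the only Ifnb1 and Ifna2 UMIs among all kept barcodes of either library. With 0 of 35 cells against 2 of 95, a difference was not detectable at this depth. The control cell with Ifnb1 also held 63 Isg15, 32 Irf7, 86 Ccl4 and 4 Tnf UMIs among 10018, with 19 of Ccr9 and 9 of Tcf4, but it carried 97 UMIs of the neutrophil gene S100a8 as well. The cell with Ifna2 had none of Isg15 and S100a8 among 6926 UMIs.

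Among interferon-stimulated genes more were lower than higher in inhibitor cells. Of 38 listed genes 23 were measured, 4 were at least 1.5-fold higher and 8 lower, and the median log2 ratio was -0.35, beside -0.29 in the Clec9a-positive barcodes and -0.88 in T cells. Isg15, a ubiquitin-like modifier, was at 37.8 CPM in inhibitor cells and 188 CPM in control cells (-2.31, interval -3.41 to -1.39). The Ifnb1 cell alone held 63 of the 136 control UMIs, and without it the control level was 102 CPM. Stat2, a transcription factor downstream of interferon receptors, was at 45.4 CPM in inhibitor cells and 76 CPM in control cells (-0.74 in the gate and -0.69 in the Clec9a-positive barcodes). The antiviral genes Rsad2 and Mx1 had 3 and 4 UMIs in inhibitor cells and 23 and 26 in control cells. Ifi27l2a, the most abundant member apart from Bst2, was at 1199 CPM in inhibitor cells and 1029 CPM in control cells (0.22). Ifitm3 was higher at 942 CPM in inhibitor cells and 158 CPM in control cells (2.58), with 0.17 once cells with more than a few Lyz2, S100a8, S100a9, Alb, Apoa1, Cd79a, Ncr1, Klrb1c or haemoglobin UMIs had been removed. That removal left 26 inhibitor and 56 control cells and brought the median of the list to -0.07. Of 26 genes listed for interferon gamma 12 were measured, 2 higher and 2 lower, with a median of -0.08.

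Ccl4, an inflammatory chemokine, was the most abundant of the 36 listed interferon, cytokine and chemokine transcripts, of which 5 were measured, 4 higher and none lower. It was at 2130.1 CPM in inhibitor cells and 1598 CPM in control cells (0.41, interval 0.27 to 0.56), with a lowest, median and highest cell at 0, 11.9 and 87 UMIs per 10000 in inhibitor cells and 0, 5.5 and 93.5 in control cells. The libraries overlapped over most of this range, and 25 of 35 inhibitor and 68 of 95 control cells had a UMI. Single cells held 108 of 563 inhibitor and 86 of 1156 control UMIs, and the inhibitor one also held 49 Lyz2 UMIs. In the Clec9a-positive barcodes the ratio of Ccl4 was alike (0.46), and T cells stood at 669.98 CPM in the inhibitor and 597 CPM in the control library. Its relative Ccl3 had 63 UMIs in inhibitor and 98 in control cells (0.81), of which single cells held 23 in the inhibitor and 24 in the control library, and it was lower in the Clec9a-positive barcodes (-1.03). Ccl5 was at 144 CPM in inhibitor cells and 35.9 CPM in control cells, 26 of 38 inhibitor UMIs being in 1 cell. For Il1b single cells held 58 of 61 inhibitor and 34 of 36 control UMIs, and the inhibitor one also held 241 UMIs of S100a8. Among 264311 UMIs of inhibitor and 723301 of control cells, Il12a had 3 in inhibitor and 9 in control cells, Tnf 4 in inhibitor and 15 in control cells, and Il6 none.

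The median of MHC class II genes was on opposite sides of 0 in the gated and the Clec9a-positive cells, and single cells weighed on the gated values. Of 14 listed MHC class II genes 12 were measured, 2 at least 1.5-fold higher and none lower, with a median log2 ratio of 0.25, against -0.26 in the Clec9a-positive barcodes. H2-Aa was at 2769 CPM in inhibitor cells and 2239.7 CPM in control cells (0.31, interval 0.18 to 0.43) and at 1965 CPM in inhibitor and 2740.1 CPM in control Clec9a-positive barcodes (-0.48). The invariant chain gene Cd74 was at 8743 CPM in inhibitor cells and 7401 CPM in control cells (0.24, interval 0.17 to 0.31, and -0.42 in the Clec9a-positive barcodes). The few gated cells without a Ccr9 UMI, 3 inhibitor and 4 control cells, had Cd74 at 13433 CPM in the inhibitor and 18174 CPM in the control library, against 8419 CPM in inhibitor and 6923 CPM in control cells with Ccr9. Class I genes differed less, with 19 of 20 measured, 1 higher, none lower and a median of -0.10; H2-K1 was at 2009 CPM in inhibitor cells and 2321 CPM in control cells and B2m at 1948 CPM in inhibitor cells and 2084 CPM in control cells. Of 22 listed costimulation and maturation genes 4 were measured, none higher and 2 lower, with a median of -0.52. Cd69 had 61 UMIs in inhibitor and 227 in control cells, whereas several other maturation genes were scarce in both libraries. Cd80, Cd86 and Cd40 had 1, 5 and 1 UMIs in inhibitor cells and 3, 5 and 4 in control cells, and Ccr7, the receptor for migration to lymph nodes, 0 in inhibitor and 1 in control cells.

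Among transcripts shared with the B lineage, which mouse plasmacytoid cells are known to carry, the median was below 0 in both sets. Of 20 listed genes 11 were measured, none higher and 5 lower, with a median of -0.55 in the gate, -0.43 in the Clec9a-positive barcodes and -1.13 in T cells. Iglc3, an immunoglobulin light chain constant gene, was at 817 CPM in inhibitor cells and 1258 CPM in control cells (-0.62, interval -0.84 to -0.41) and Dntt, the polymerase that adds bases at receptor joints, at 125 CPM in inhibitor cells and 195 CPM in control cells (-0.64, interval -1.24 to -0.09). Ighm, the mu heavy chain gene, was at 870.2 CPM in inhibitor cells and 1116 CPM in control cells (-0.36) and at 104 CPM in inhibitor and 467 CPM in control T cells. The other lower members were Ly6d, Spib and Iglc2. The B cell genes Pax5 and Ebf1 were at 0 in the gated cells of both libraries. With estimated free RNA subtracted, the log2 ratio was -0.59 for Iglc3, -0.65 for Iglc2, -0.26 for Ighm and -0.62 for Dntt, and the median of the list was -0.26. That estimate is low, since it rests partly on Cd3 and Ms4a1, which the gate holds at 0.

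**Figure D5:**
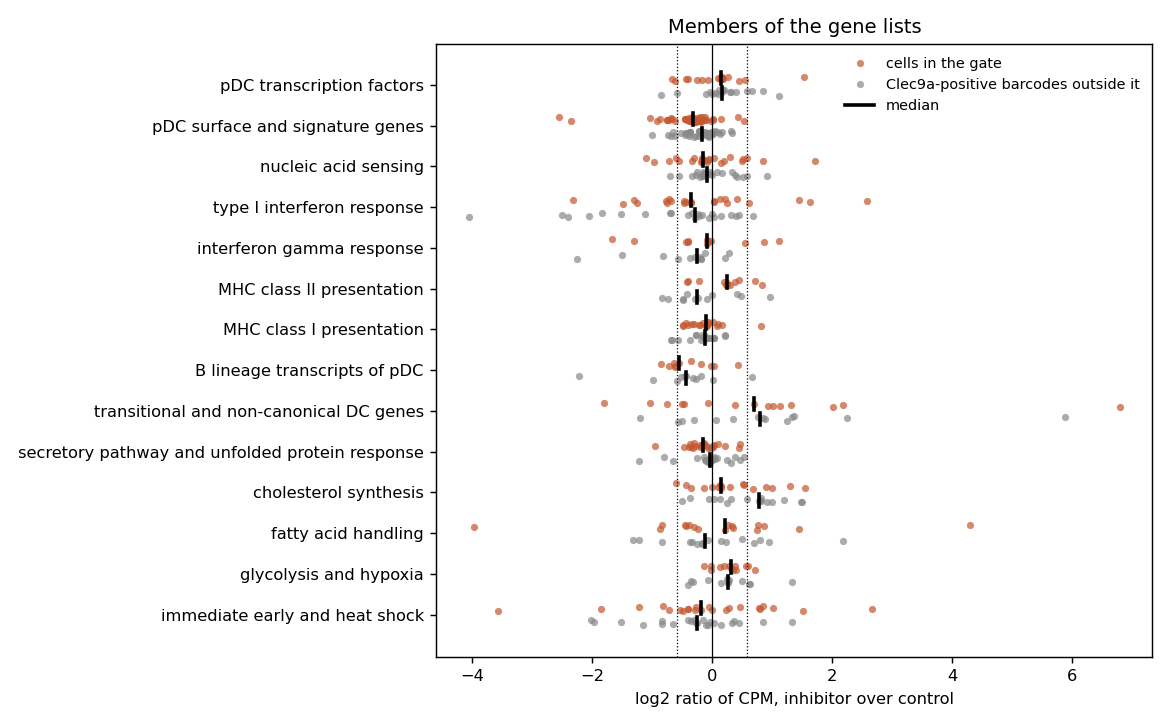
Log2 ratios of CPM, inhibitor over control, of the measured members of 14 gene lists, in the gated cells (red) and in the Clec9a-positive barcodes outside the gate (grey), each with its median as a bar; dotted lines stand for 1.5-fold. Most medians lie within the dotted lines, the list of transitional genes lies to the right in both sets, and the median of MHC class II lies on opposite sides of 0.

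Genes of transitional and non-canonical dendritic cells were mostly higher, in a library whose gated cells also held more monocyte transcripts. Of 21 listed genes 15 were measured, 8 higher and 3 lower, with medians of 0.70 in the gate, 0.81 in the Clec9a-positive barcodes and 0.46 in T cells. Vim, an intermediate filament gene, was at 976 CPM in inhibitor cells and 393 CPM in control cells (1.31, interval 1.06 to 1.56), Crip1 at 1249 CPM in inhibitor cells and 572 CPM in control cells (1.13), the galectin gene Lgals3 at 791 CPM in inhibitor cells and 174 CPM in control cells (2.18), and the calcium-binding gene S100a6 at 1399.9 CPM in inhibitor cells and 729.99 CPM in control cells (0.94). In T cells these 4 gave 0.98, 0.53, 2.23 and 0.46. After removal of cells with transcripts of other types they gave 0.55, 0.57, 1.43 and 0.40, and the median of the list was -0.26. Klf4, a transcription factor of monocytes and some dendritic cells, was at 174 CPM in inhibitor cells and 85.7 CPM in control cells (1.02, 0.84 in the Clec9a-positive barcodes and 0.92 after that removal). Axl, which marks transitional dendritic cells in humans, had 5 UMIs in inhibitor and 3 in control cells.

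Markers of other cells differed between the libraries. The 12 monocyte markers summed to 5335 CPM in inhibitor cells and 1815 CPM in control cells, and to 5459.7 CPM in inhibitor and 1006 CPM in control T cells. They include Ly6c2, also on the list of plasmacytoid signature genes, and Ccr2. Of their 1313 UMIs in control gated cells, 1142 were of Ly6c2 and 138 of Ccr2. In inhibitor gated cells it was 305 and 48 of 1410, and another 937 were of Lyz2. The 32 inhibitor cells with at most 20 Lyz2 UMIs held only 32 of those Lyz2 UMIs. Lyz2, the macrophage and monocyte lysozyme, was at 3545 CPM in inhibitor cells and 31.8 CPM in control cells, and 3 inhibitor cells with more than 20 Lyz2 UMIs held 905 of its 937 UMIs. The 10 neutrophil markers summed to 1983 CPM in inhibitor and 340.1 CPM in control cells, with 1 cell holding 96.4% of their UMIs in the inhibitor library and 1 holding 96.7% in the control library. The 14 hepatocyte markers summed to 132 CPM in inhibitor and 1033 CPM in control cells, with 7 of them detected in inhibitor and 14 in control cells, and to 153 CPM in inhibitor and 2218 CPM in control T cells. All 8 stellate cell and fibroblast markers and all 6 mast cell and basophil markers were at 0, as were 5 of 6 Kupffer cell markers. With doublets removed by score, the median log2 ratio was 0.25 for the transitional genes, -0.21 for the interferon-stimulated genes and -0.20 for the surface and signature genes. In the same 32 inhibitor and 92 control cells the log2 ratio was 0.25 for S100a6, 0.72 for Vim, 0.58 for Crip1 and 1.71 for Lgals3. With estimated free RNA subtracted, those 3 medians were 1.01, -0.36 and -0.30.

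Some cholesterol synthesis genes were higher in inhibitor cells. Of 24 listed genes 17 were measured, 5 higher and 1 lower, with a median of 0.16 in the gate, 0.78 in the Clec9a-positive barcodes and 0.06 in T cells. Hmgcs1, which makes the HMG-CoA of the pathway, was at 102 CPM in inhibitor cells and 41.5 CPM in control cells (1.30, interval 0.49 to 2.10, 0.82 in the Clec9a-positive barcodes), and after thinning it was detected in 23.5% (10.7 to 41.2) of inhibitor cells and 4.26% (1.17 to 10.5) of control cells (45.7% of inhibitor and 13.7% of control cells before thinning, and 2.33% of inhibitor and 1.69% of control T cells after thinning). Fdps, farnesyl diphosphate synthase, was at 129 CPM in inhibitor cells and 80.2 CPM in control cells (0.68, interval 0.03 to 1.32) and at 216 CPM in inhibitor and 76.2 CPM in control Clec9a-positive barcodes. Sqle, squalene epoxidase, had 15 UMIs in inhibitor and 14 in control cells (1.55 in the gate and 0.91 in the Clec9a-positive barcodes) and the isomerase gene Idi1 16 in inhibitor and 22 in control cells (0.99 in the gate and 0.99 in the Clec9a-positive barcodes). The counts behind these genes are low, 1 inhibitor cell held 7 of the 15 Sqle UMIs, and the interval of Idi1 (0.99, interval -0.03 to 1.99) includes 0. The lower member was Pmvk with 13 UMIs in inhibitor and 54 in control cells (-0.60).

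Fabp5, the gene of the inhibited protein, was scarce in plasmacytoid dendritic cells. It had 43 UMIs in inhibitor and 6 in control cells (163 CPM in inhibitor and 8.3 CPM in control cells), but 1 inhibitor cell, which also held 49 Lyz2 and 6 Csf1r UMIs, carried 36 of them. Without it the inhibitor level was 28.0 CPM from 7 UMIs, and T cells stood at 26.5 CPM in the inhibitor and 46.2 CPM in the control library and cDC2 at 157 CPM in the inhibitor and 56.5 CPM in the control library. Fabp5 has pseudogene copies that could share its reads. Its relative Fabp4 had no UMI in inhibitor cells and 128 in control cells, 126 of them in 1 cell that also held all 42 Ly6c1 and 25 of 45 Kdr UMIs, genes known from endothelial cells. Of 34 listed fatty acid genes 17 were measured, 5 higher and 3 lower, with a median of 0.21, against -0.11 in the Clec9a-positive barcodes. Plin2, the lipid droplet coat gene, had 17 UMIs in inhibitor and 17 in control cells (1.45, interval 0.39 to 2.51, 2.18 in the Clec9a-positive barcodes and 0.85 in T cells).

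Of 30 genes of the secretory pathway and the unfolded protein response, on which these cells rely as they secrete, 25 were measured, none higher and 1, Atf6, lower, with a median of -0.15. Xbp1, the response's transcription factor, was at 288 CPM in inhibitor cells and 349.8 CPM in control cells and Hspa5, the main chaperone of the endoplasmic reticulum, at 496 CPM in inhibitor cells and 518 CPM in control cells. Glycolysis genes had a median of 0.31 over 13 of 20 measured, 2 of them higher, with Gapdh at 742 CPM in inhibitor cells and 559.9 CPM in control cells (0.41, interval 0.15 to 0.65). Of 28 immediate early and heat shock genes 23 were measured, 6 higher and 5 lower. Jun was at 979.9 CPM in inhibitor cells and 1371 CPM in control cells (-0.49, interval -0.69 to -0.29, -1.51 in the Clec9a-positive barcodes), Fosb at 159 CPM in inhibitor cells and 279 CPM in control cells (-0.81 in the gate and -2.02 in the Clec9a-positive barcodes) and Junb at 518 CPM in inhibitor cells and 286 CPM in control cells (0.86 in the gate and 0.44 in the Clec9a-positive barcodes). Among 20 chemokine and homing receptors 15 were measured, 3 higher and none lower; Ccr2 was at 182 CPM in inhibitor cells and 191 CPM in control cells and Cxcr3 at 79.5 CPM in inhibitor cells and 116 CPM in control cells. Cell division genes were scarce, with no Mki67 UMI in either library and 0 Top2a UMIs in inhibitor and 2 in control cells. The survival receptor Flt3 was at 87 CPM in inhibitor cells and 70.5 CPM in control cells and Il7r at 204 CPM in inhibitor cells and 170.1 CPM in control cells.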

How the data were processed

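Single-cell RNA was captured with a 10x 3′ kit in 1 inhibitor and 1 control library. The deposited files hold UMI counts per gene and barcode, made with Cell Ranger 5.0.1 per the file headers; the submitters' processing notes also name R 3.0, Seurat 3 and mm9, while 30934 of 31053 feature IDs are in the GENCODE M21 annotation of GRCm38. No filter on doublets or free RNA is recorded there. Counts were analysed with Python 3.11.15, numpy 2.4.6, scipy 1.17.1, pandas 2.3.3, scikit-learn 1.9.0 and matplotlib 3.10.9. Kept barcodes had medians of 6617 UMIs (inhibitor) and 4085 UMIs (control).

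The gate and its members, the gene lists and the comparisons were chosen with earlier results of these data known. UMIs were summed over gated cells and divided by their total (CPM). Ratios are inhibitor over control with exact conditional binomial 95% intervals and shares have exact Clopper-Pearson intervals, all for counting error only. The limit for cells with interferon transcripts is approximate. Zero counts were replaced by 3 UMIs. Genes with at least 50 UMIs were counted at 1.5-fold, and list members with at least 20. Named genes had at least 30 UMIs, detection in at least 15% of gated cells and no cell with over 20% of the UMIs in the library where they were higher, and a level there of at least 0.5 times that of other barcodes; mitochondrial, ribosomal, haemoglobin, antigen receptor and sex-linked genes and unnamed models were left out, and the 12 furthest in each direction by the interval bound nearest to 1 were named. Leading genes were the 20 with the largest ratio over all other kept barcodes in the library where it was smaller. Motifs were counted in the 250 bases before RefSeq starts (GRCm38.p6). The script was tested on simulated data. Alternatives covered the barcode limits, the Siglech limit, doublets (a score from simulated doublets, at 0.8% per 1000 barcodes), cells with other types' transcripts, free RNA, scaling, weighting, the UMI minimum, the denominator and, chosen after seeing the data, Clec9a. Values of a few list members and named genes are not reported here.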

Additional observations from a re-analysis of the deposited data

Results flagged for a closer look

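Outside the limits on genes and mitochondrial transcripts, 4 inhibitor barcodes and 8 control barcodes also held at least 3 Siglech UMIs. They entered no comparison, and these counts are given because the signal lies in barcodes that the gate leaves out.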

How the results depend on the processing

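The lower share of plasmacytoid dendritic cells in the inhibitor library kept its direction under all 10 alternatives run, with log2 ratios between -2.06 (share of Ptprc-positive barcodes) and -0.93 (Clec9a-positive barcodes alone, an alternative chosen after seeing the data, as was allowing Clec9a). The counts of 190 higher and 195 lower of 2615 genes depended on the minimum of UMIs per gene. They were 60 and 67 of 1338 genes at 100, 668 and 696 of 5194 at 20, and 2484 and 1547 of 9812 with none, by construction of that minimum. In the 26 inhibitor and 56 control cells left after removing cells with other types' transcripts, the counts were 72 and 104 of 1548 genes. In the Clec9a-positive barcodes 179 of 2355 genes were higher and 127 lower. Fewer genes reached the minimum in these 2 sets, and any other cause was not tested. The Clec9a-positive barcodes had the opposite sign for Ccl3 (-1.03), Ccl5 (-1.56), Grap (0.71), Irf5 (-0.12), Ly6a (0.31), Myd88 (-0.25), Smim11 (-0.73), Tgfb1 (-0.00539) and the median of interferon and cytokine genes (-0.00539, Tgfb1 being the middle gene). Without cells that held other types' transcripts Ccl3 (-1.18), S100a4 (-0.59) and the median of transitional genes (-0.26) had the opposite sign, as had S100a4 without doublets (-0.19); the cause was not tested. Free RNA was estimated at 8.14% of inhibitor and 6.88% of control UMIs, partly from Cd3 and Ms4a1, which the gate holds at 0, so the estimate is low. No paired analysis was possible because there was 1 library per group. With 35 inhibitor cells, transcripts seen in few cells cannot be compared, and animal, batch and treatment cannot be told apart.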

Other observations

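Cdh5, the gene of VE-cadherin, is best known from endothelial cells and was found in many plasmacytoid dendritic cells. It had 14 UMIs in 10 of 35 inhibitor cells and 83 UMIs in 51 of 95 control cells, with no cell above 3 UMIs in the inhibitor and 5 in the control library. Its levels were 53 CPM in inhibitor cells and 115 CPM in control cells, against 0.67 CPM in inhibitor and 3.18 CPM in control T cells and 0 CPM in inhibitor and 0.959 CPM in control cDC1. Of 8 endothelial markers, Cdh5 among them, 6 were measured, none higher and 4 lower, and the list summed to 182 CPM in inhibitor and 325 CPM in control cells, beside 21.0 CPM in inhibitor and 31.5 CPM in control T cells. Of these markers 5 were detected in inhibitor and 6 in control cells, Stab2 and Lyve1 were at 0 in both, and 25 of the 45 control UMIs of Kdr lay in 1 cell. In the Clec9a-positive barcodes Cdh5 stood at 98 CPM in the inhibitor and 136 CPM in the control library. The log2 ratio of Cdh5 was -1.12 in the gate, -1.38 without cells that held other types' transcripts, -1.03 without doublets and -1.10 with estimated free RNA subtracted.

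Of 19 listed inhibitory receptors and adaptors 15 were measured, 2 higher and 1 lower, with a median log2 ratio of -0.13. Among all genes with at least 20 UMIs 12.9% were higher and 13.4% lower. The 2 higher members had few UMIs behind them. The inhibitory Fc receptor gene Fcgr2b had 14 UMIs in inhibitor and 8 in control cells, and 1 inhibitor cell held 6 of them. Cd300a had 40 in inhibitor and 41 in control cells, of which 12 lay in 1 inhibitor cell. In the Clec9a-positive barcodes the log2 ratios of Fcgr2b and Cd300a were 0.11 and 1.01. Genes of mTOR signalling and growth had a median of 0.05 over 11 of 16 measured, 3 of them higher and none lower. Transcripts of mitochondrial DNA had a median of -0.23 in the gate and -0.26 in T cells. Cd8b1, best known from cytotoxic T cells, had 40 of 264311 UMIs in inhibitor and 216 of 723301 in control gated cells, although Cd3 transcripts were at 0 by the gate.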
